A study of Homo sapiens with 24 samples.

Results

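FaDu and SAS are established cell lines of head and neck squamous cell carcinoma. FaDu was derived from a tumour of the hypopharynx and SAS from a tumour of the tongue. Their untreated-side RNA was compared here across all genes of the array, to describe how the 2 lines differed before any of the treatments of the series. Each array of the series carried 2 RNAs, the control in Cy3 and the treated sample in Cy5, and only the Cy3 side of the first array design was compared. Of the 24 samples of the series, 6 met this choice: the 3 FaDu arrays and the 3 SAS arrays of that design. The FaDu control RNAs came from cells given a control miRNA (the array for miR-375), a control siRNA (the array for si-LAMB3) and DMSO (the array for wogonin, a plant flavone). The SAS control RNAs likewise came from cells given a control miRNA (the array for miR-29a), a control siRNA (si-LAMB3) and DMSO (wogonin). The cells were grown in RPMI or DMEM medium, and the transfections used Lipofectamine RNAiMAX. Both are lines in culture, without the stroma and immune cells of a tumour, and nothing in the labels says that the arrays of a line came from separate cultures, so all p-values measure only the spread among these arrays, which may be technical.

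Squamous epithelium is built from basal cells, which rest on laminin-332 through hemidesmosomes and express keratin 5, keratin 14 and the transcription factor p63. As these cells move up they make keratin 6, keratin 16, transglutaminase 1 and the small proline-rich proteins of the cornified envelope. Carcinomas of this epithelium often gain the 11q13 segment that holds CCND1 and CTTN, lose SMAD4 or CDKN2A, and may turn on mesenchymal genes or the NRF2 programme of detoxifying enzymes.

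Levels are given as log2 of the signal relative to the 75th percentile of the same array, so a level of 0 means that percentile and a difference of 1 means a 2-fold difference for the same probe. Values of the 3 arrays of a line always follow the order control miRNA, control siRNA, DMSO. Differences are FaDu minus SAS. A gene with several tested probes is represented by the brightest of them. Probes were tested if well above background on all 3 arrays of at least 1 line. A probe that passed through only 1 line was thereby likely to differ, and the counts and medians of gene lists include such probes. A gene was called when the adjusted p was under 0.05 and the difference at least 1 on the log2 scale in either direction. Where a probe was not well above background on any array of the dim line, the fold is a bound, written as at least so many fold, and the order of the differences among such genes is that of the signals as given, which values at background do not fix. Where only some arrays of the dim line were well above background, their number is often given, but not for every gene named.

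The 75th percentile signal of the 6 control channels ran from 473 to 969, and 54.99% to 62.96% of the spots were well above background. Over the 19042 probes well above background on all 6 arrays, the levels correlated at r = 0.96 to 0.99 between arrays of 1 line and at 0.90 to 0.94 between FaDu and SAS. Correlation of either line with the 10 control channels of the other lines (PC3, DU145, LNCap, A498 and 786O) was 0.78 to 0.90, across probes, which are not independent replicates. All 8 keratinocyte markers, KRT5, KRT14 and KRT6A among them, were well above background on all FaDu arrays and 7 of them on all SAS arrays, and their summed signal relative to the 75th percentile was 213 to 235 in FaDu and 52.3 to 168 in SAS. Of 9 leukocyte markers on the array 5 were well above background on no array, as were 4 of 7 endothelial markers and 7 of 10 fibroblast markers, among them COL1A2, COL3A1, DCN, LUM and PDGFRA. Of the prostate markers 1 of 8 and of the kidney markers 4 of 9 were well above background on no array. Well above background on all FaDu arrays were 2 fibroblast, 2 leukocyte, 2 endothelial, 3 prostate and 2 kidney markers, and on all SAS arrays 2, 2, 1, 3 and 3. The FaDu control miRNA array was hybridised on another slide than the remaining 5 arrays, so in FaDu that slide and the control miRNA cannot be told apart.

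In all, 13297 genes could be tested, and 1536 were higher in FaDu (11.6% of those tested) and 1489 higher in SAS (11.2%). These came from 22283 tested probes of the 42405 on the array. In 11749 genes the probe was well above background on all 6 arrays, and 8.61% of these were called higher in FaDu and 8.9% higher in SAS. Among the called genes, 328 of those higher in FaDu were not well above background on any SAS array, and 209 of those higher in SAS were not so on any FaDu array. Several probes were tested for 703 called genes, and the call rests on the brightest. In 250 of the 703 the tested probes did not all share the call, and in 55 a probe pointed the other way. Differences of at least 3 on the log2 scale were found for 325 genes called higher in FaDu and 335 called higher in SAS. With normexp background correction the counts fell to 751 genes higher in FaDu and 854 higher in SAS, of which 742 and 845 were also called with the processed signal.

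By limma with cell line as a covariate, no probe passed an adjusted p of 0.05 between the transfected control arrays and the DMSO arrays. The unadjusted p was under 0.05 for 574 of 22283 probes. This fit pooled the control miRNA and control siRNA arrays, so it could not single out a control miRNA array that departed from both other kinds. No absence of such differences follows from it. The Cy5 side of the same 6 arrays holds other RNA samples of the same lines, after miR-375, miR-29a, si-LAMB3 or wogonin. Of the genes called higher in FaDu in Cy3, 66.99% were also called so in Cy5, which is 77.7% of the Cy5 calls among genes tested in both channels. For SAS the shares were 62.6% and 79.1%. Those Cy5 calls numbered 1325 for FaDu and 1178 for SAS, whereas 1462 and 1308 genes were called in Cy5 in all. Only 3 of the genes called higher in FaDu and 5 of those called higher in SAS had the opposite sign in Cy5. Among the genes called higher in FaDu the highest of the 3 FaDu values was that of the control miRNA array for 51.4%, and among those higher in SAS the highest SAS value was that of the control miRNA array for 39.4%.

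The largest log2 differences in favour of FaDu belonged to genes whose probes stayed at background in SAS. MGST1, a microsomal glutathione transferase of the endoplasmic reticulum membrane, had the largest of them. Its level was 4.37, 4.71 and 4.61 in FaDu and -6.68, -7.09 and -6.78 in SAS, at least 601-fold higher in FaDu (adjusted p = 2.32e-06). The probe lies on chromosome 12 from 16516907 to 16516966, and the gene was well above background in all 5 other lines, at means from 4.02 to 6.15. TUSC3, a subunit of the oligosaccharyltransferase that attaches N-glycans, showed the same arrangement, with 2.64, 2.98 and 2.65 in FaDu and -6.97, -7.32 and -6.99 in SAS, at least 172-fold. Its means in the other lines ran from 1.38 to 3.04. LDOC1, a small leucine zipper protein gene of the X chromosome, stood at 1.92, 3.21 and 1.99 against -6.76, -6.89 and -6.16, at least 131-fold, and its other-line means were 2.93 to 5.34. In these 3 genes SAS was the line that stood apart from every other line on the design.

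TFPI2, a secreted inhibitor of serine proteases in the matrix, lay at 2.59, 3.35 and 3.35 in FaDu and -6.64, -6.95 and -6.70 in SAS, at least 217-fold. EPDR1 had 2.59, 2.54 and 1.96 in FaDu and -6.57, -6.97 and -6.61 in SAS, at least 131-fold. CYB5A, the cytochrome b5 that passes electrons to fatty acid desaturases and P450 enzymes, had 1.74, 1.84 and 2.25 and -6.30, -6.27 and -5.85, at least 97.9-fold, and its second probe differed by 8.52 on the log2 scale. The FaDu values of each of these 3 genes lay within 1 log2 unit of each other. GDA, guanine deaminase, PRSS21, the serine protease testisin, IFI27, an interferon-inducible gene, and TSPYL5 completed the 10 named by the log2 difference of their signals, at least 42.7-fold, 85.6-fold, 117-fold and 32.2-fold higher in FaDu. By the bounds alone LXN (at least 55.7-fold) and HOXB2 (at least 37.50-fold) would stand before TSPYL5. PRSS21 was near background in all 5 other lines too, with means from -6.57 to -5.38, so here FaDu was the line that stood apart.

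Among the genes well above background on all 6 arrays and higher in FaDu, KCNG1 (a potassium channel subunit), ALDH3A1 (an aldehyde dehydrogenase of cornea and squamous epithelium) and NTN1 (the secreted guidance factor netrin 1) differed most. KCNG1 had 2.79, -0.06 and 0.82 in FaDu and -4.13, -4.21 and -3.42 in SAS, 34.4-fold. ALDH3A1 had 3.53, 0.38 and 1.01 and -3.77, -3.49 and -2.96, 33.1-fold (adjusted p = 0.00348). NTN1 had 2.87, 1.86 and 1.26 and -2.35, -3.61 and -2.67, 29.3-fold. In KCNG1 and ALDH3A1 the FaDu control miRNA array was well above the other 2 FaDu arrays. The lowest FaDu value was above the highest SAS value in all 3 genes. A call all but fixes this, since the lines overlapped in only 6 of the 3025 called genes. Among all tested genes they did not overlap in 49.7%. CRELD2, a chaperone-like protein of the endoplasmic reticulum, was at a high level and also highest on the FaDu control miRNA array. It had 8.29, 5.27 and 6.25 in FaDu and 2.73, 2.15 and 2.33 in SAS, 18.4-fold. OASL, LRRC8B (a subunit of volume-regulated anion channels), SALL4 (a stem cell transcription factor), IL1RN (the interleukin 1 receptor antagonist), PPP4R4 (a regulatory subunit of protein phosphatase 4) and BIRC3 (an inhibitor of apoptosis protein) were 13.2-fold to 20.8-fold higher in FaDu. BIRC3 was the least even of them, at 0.78, 1.86 and 1.72 in FaDu and -0.36, -3.35 and -3.10 in SAS (adjusted p = 0.0125).

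**Figure D1:**
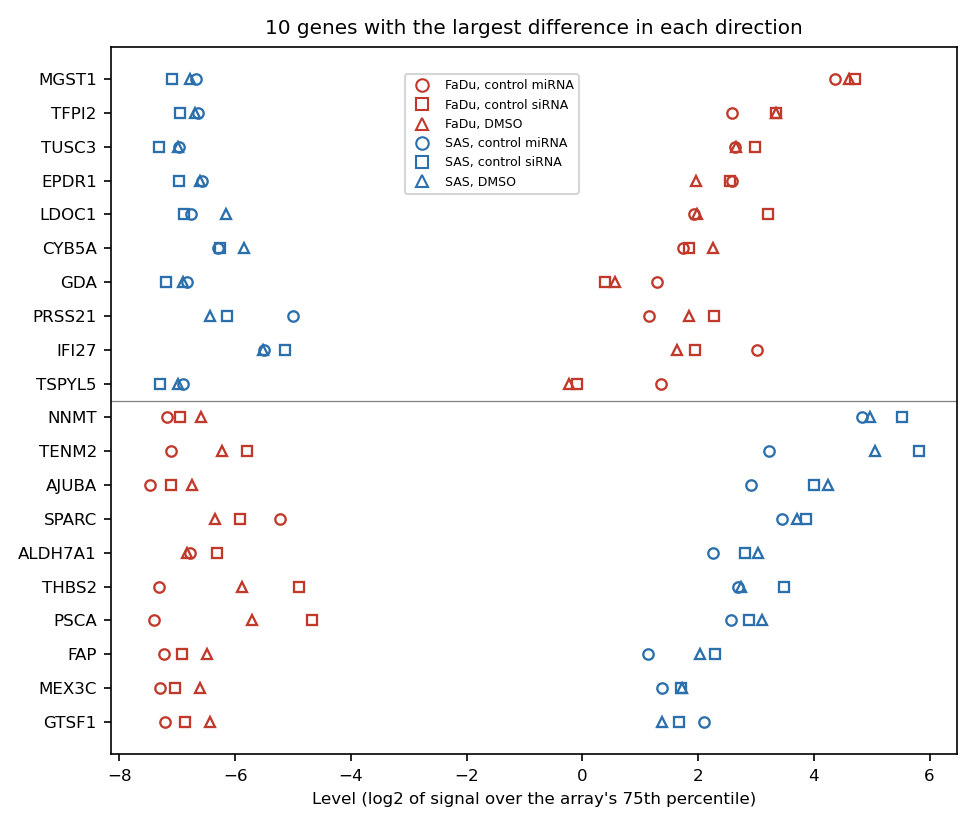
Levels of the 10 genes with the largest log2 signal difference in each direction, on a log2 scale relative to each array's 75th percentile. Each symbol is 1 array, red for FaDu and blue for SAS, with a shape for each kind of control. The 2 lines do not overlap in any of the 20 genes, from MGST1 (difference 11.42) at the top to NNMT (difference -12.01), which heads the lower set. Among all tested genes the lines do not overlap in 49.7%.

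In favour of SAS, NNMT had the largest log2 difference and the largest bound of all genes tested. NNMT, nicotinamide N-methyltransferase, uses the methyl donor S-adenosylmethionine to methylate nicotinamide. Its level was -7.17, -6.95 and -6.60 in FaDu and 4.83, 5.52 and 4.97 in SAS, at least 967-fold higher in SAS (adjusted p = 3.13e-06). In the other 5 lines it ranged from -0.71 to 5.65. TENM2, a large transmembrane teneurin, was not measurable in FaDu either, with -7.11, -5.80 and -6.24 there and 3.22, 5.81 and 5.05 in SAS, at least 725-fold. AJUBA, a LIM protein of cell junctions that binds Hippo pathway kinases, had -7.48, -7.11 and -6.74 and 2.91, 3.998 and 4.24, at least 368-fold. Its means in the other lines lay between -0.13 and 2.25, above all 3 FaDu values and below all 3 SAS values. Both lines thus stood apart for AJUBA, in opposite directions.

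SPARC, a matrix glycoprotein, was well above background on 1 of the 3 FaDu arrays, with -5.22, -5.93 and -6.35 in FaDu and 3.44, 3.87 and 3.71 in SAS (difference -9.503, adjusted p = 7.39e-06). ALDH7A1, an aldehyde dehydrogenase of lysine breakdown, had -6.78, -6.32 and -6.83 and 2.26, 2.81 and 3.04, at least 183-fold. THBS2, the matrix protein thrombospondin 2, had -7.32, -4.90 and -5.89 and 2.68, 3.48 and 2.74, at least 219-fold. Each of these was even over the 3 SAS arrays and far from every FaDu value. PSCA, a small lipid-anchored surface antigen, FAP, a serine protease of activated fibroblasts, MEX3C, an RNA-binding ubiquitin ligase, and GTSF1, a factor of the piRNA pathway in germ cells, were higher in SAS by at least 198-fold, 99.00-fold, 84.8-fold and 92.03-fold. FAP and GTSF1 were near background in all 5 other lines, with means of -7.54 to -6.10 and -7.52 to -6.53, so SAS stood apart for both.

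Where all 6 arrays were well above background, DIO2, the deiodinase that activates thyroid hormone, led at -2.59, -3.24 and -3.81 in FaDu and 3.90, 4.23 and 3.16 in SAS, 126-fold. HEG1, a transmembrane protein of cell contacts, had -0.26, -2.36 and -2.54 and 4.37, 5.49 and 4.92, 100.2-fold, and SUSD2 had -1.76, -3.63 and -3.22 and 1.86, 3.29 and 4.53, 68.6-fold. TBX1, a T-box transcription factor of the pharyngeal arches, had -4.05, -4.49 and -3.39 and 1.92, 1.68 and 1.98, 57.3-fold. All 4 genes kept the lines at least 3 log2 units apart at their nearest arrays. P3H3 (a collagen prolyl hydroxylase), LY6K, LIMCH1 (an actomyosin regulator), TGFBI (a matrix protein induced by TGF-beta), RHOBTB3 and IL7R (the interleukin 7 receptor) were 24.2-fold to 45.1-fold higher in SAS. TGFBI was the most even of them, 2.44, 2.27 and 2.38 against 7.21, 7.57 and 7.36 (adjusted p = 9.71e-06). IL7R was the least even, at -3.48, 0.62 and 0.40 in FaDu, where the control miRNA array was lowest, and 3.57, 4.10 and 3.66 in SAS.

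The list of basal squamous markers was not limited to basal cells, since it also held KRT6A and KRT16, made as cells move up. Of its 30 tested members, 6 were higher in FaDu and 0 in SAS, and 24 were not called. The median difference was 1.005, against 0.01 over all tested genes. KRT4, a keratin of mucosal epithelium, had 5.22, 0.09 and 0.81 in FaDu and -4.72, -4.66 and -4.22 in SAS, a difference of 6.57 (adjusted p = 0.00785), with 2 of the 3 SAS arrays well above background. SOX2, a transcription factor of squamous progenitors on 3q26, had 1.18, -1.499 and -1.55 and -7.004, -6.94 and -6.79, at least 16.49-fold. The FaDu control miRNA array was far above the other 2 FaDu arrays in both genes. KRT6A and KRT16, the paired keratins of wound-edge keratinocytes, were 8.23-fold and 4.63-fold higher in FaDu, with 2.23, 1.58 and 2.33 in FaDu and -1.46, -0.75 and -0.77 in SAS for KRT6A. COL17A1, the hemidesmosome collagen, and TRIM29 were 4.30-fold and 2.41-fold higher. KRT5 and KRT14, the keratins of basal cells, did not pass the test. KRT14 lay at 6.88, 5.86 and 6.18 in FaDu and spread widely in SAS, at 2.14, 4.73 and 5.75.

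Of 53 genes of squamous differentiation on the array, 29 were bright enough to test, and IVL, LORICRIN, FLG and KRT1, which mark fully differentiated keratinocytes, were not among them. Among the tested, 8 were higher in FaDu and 2 in SAS, with a median of 0.76. RHCG, an ammonium transporter of the upper layers of mucosa, had -1.99, -0.18 and -0.45 in FaDu and -5.14, -6.56 and -5.34 in SAS, at least 13.8-fold. SPRR1B, a cornified envelope precursor, had -4.23, -0.30 and -1.72 and -4.66, -6.48 and -5.91, at least 5.98-fold. TGM1, the transglutaminase that cross-links the envelope, had 2.38, -0.23 and 0.26 and -3.18, -2.68 and -1.61, 9.80-fold. The partners S100A8 and S100A9, which form calprotectin, went in opposite directions: S100A8 was higher in FaDu by 2.22 on the log2 scale and S100A9 higher in SAS, at -0.62, -0.23 and -0.42 in FaDu and 1.03, 1.64 and 2.74 in SAS. In the Cy5 channel of the si-LAMB3 and wogonin arrays the difference of S100A9 was 0.32, with the opposite sign.

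Kallikreins are secreted serine peptidases that help shed the upper layers of squamous epithelium, and their list also held related proteases and inhibitors. Of its 15 tested members, 3 were higher in FaDu and 3 higher in SAS, with a median of 1.09. The called kallikreins, KLK1, KLK7 and KLK8, were all higher in SAS, and KLK8 had 1.73, -0.09 and 0.84 in FaDu and 2.46, 3.82 and 4.41 in SAS, 6.65-fold. On the FaDu side were the membrane proteases PRSS8 and TMPRSS4 and the kallikrein inhibitor SPINK5, which differed by 2.56 on the log2 scale, with 2 of the 3 SAS arrays well above background. Of the 31 tested markers of simple epithelia 3 were higher in FaDu and 2 in SAS, with a median of -0.05. These shares, 9.68% and 6.45%, were below those of all tested genes, 11.6% and 11.2%. KRT7, a keratin of glandular epithelium, had 3.46, 5.04 and 4.88 in FaDu and 8.44, 7.89 and 8.31 in SAS, 13.50-fold higher in SAS. The tight junction genes split, with CLDN1 higher in SAS (7.41-fold) and CLDN3 and CLDN7 higher in FaDu (6.93-fold and 4.16-fold).

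Mesenchymal genes were more often higher in SAS. Of 28 tested, 12 were higher in SAS and 4 in FaDu, with a median difference of -0.73. These shares, 42.9% and 14.3%, stood beside 11.2% and 11.6% of all tested genes. In only 17 of the 28 was the probe well above background on all 6 arrays. The others passed the filter through 1 line only, which favours a call, and they enter both the counts and the median. Besides SPARC, FAP and TGFBI, these included FN1 (fibronectin), COL5A1, COL5A2, COL6A1, VIM, CCN1, LOX and FSTL1. FN1 had -6.89, -6.75 and -6.09 in FaDu and 1.38, 0.35 and -0.28 in SAS, at least 39.3-fold. COL5A2, a fibrillar collagen chain, had -3.08, -3.99 and -5.48 and 0.84, 2.92 and 2.07, a log2 difference of -6.13, and 2 of its 3 FaDu arrays were well above background. VIM, the intermediate filament vimentin, had -5.41, -4.11 and -5.28 and -1.28, -1.73 and -2.68, a log2 difference of -3.03, and was well above background on 1 of the 3 FaDu arrays. Genes of the same list on the FaDu side were TAGLN (transgelin, a log2 difference of 3.37 with 1 SAS array well above background), COL1A1 (at least 3.69-fold), S100A4 and TWIST2. ZEB1, ZEB2, COL1A2, COL3A1 and DCN were too dim in both lines to be tested.

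**Figure D2:**
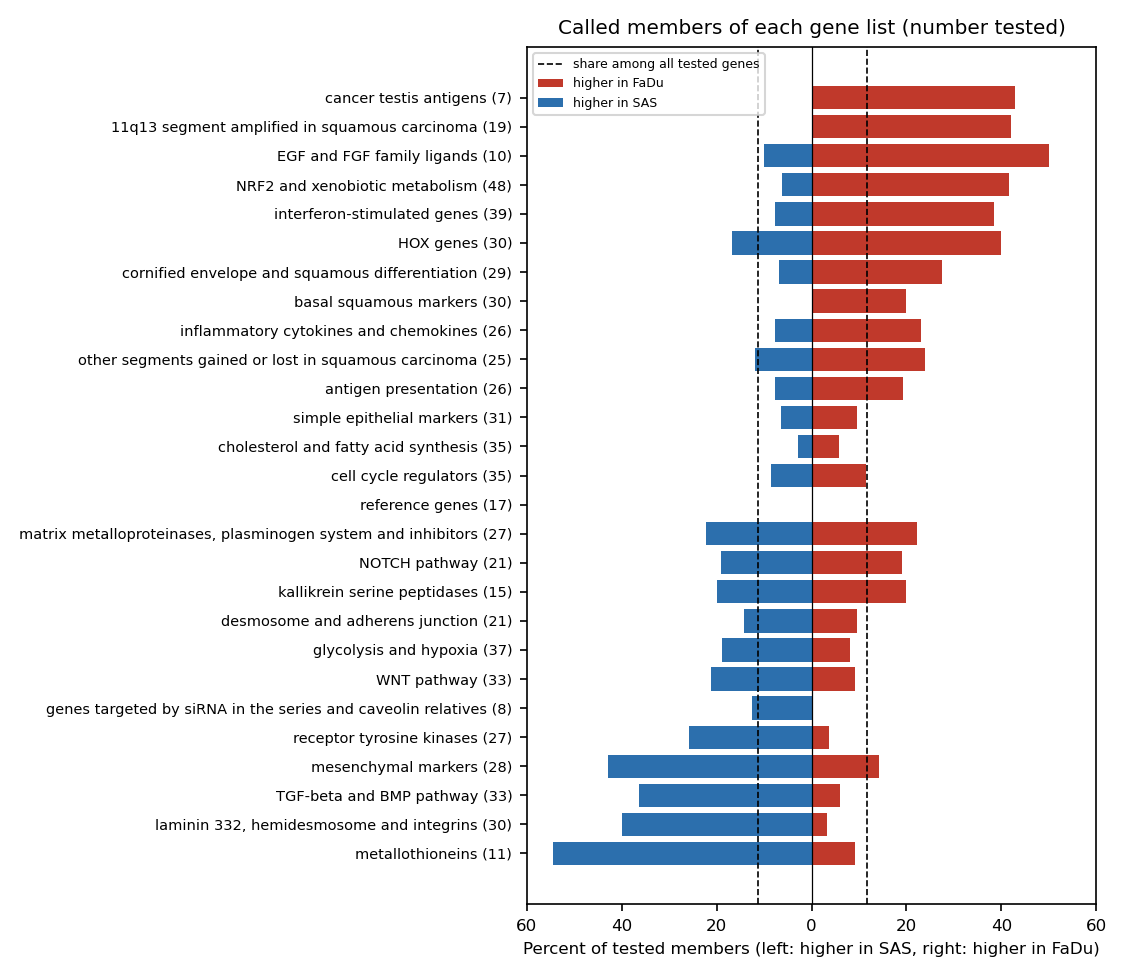
Percent of the tested members of each gene list that were called higher in FaDu (red, to the right) or higher in SAS (blue, to the left). The number of tested members follows each name, and the dashed lines mark the shares among all tested genes (11.6% and 11.2%). The metallothioneins reach 54.5% on the SAS side and the NRF2 list 41.7% on the FaDu side, while none of the 17 reference genes was called.

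Matrix attachment genes also lay mostly on the SAS side. Of the 30 tested genes of laminin-332, the hemidesmosome and the integrins, 12 were higher in SAS and 1, COL17A1, higher in FaDu, with a median of -0.78. Type IV collagen, the network of basement membranes, was higher in SAS for both main chains, COL4A1 at -2.35, -2.15 and -2.91 in FaDu and 1.68, 1.29 and 0.71 in SAS (12.99-fold) and COL4A2 at 1.37, 2.44 and 1.39 and 5.24, 5.03 and 4.69 (9.54-fold). The laminin chains LAMA3, LAMA4, LAMB1 and LAMC1 were called in the same direction, although 1 further probe of LAMA4 and 1 of LAMB1 did not show the difference. LAMA4 and LAMB1 gave -4.501 and -2.52 with the brightest probe, and 0.81 and 0.00 with the probe farthest from it. LAMB3, the beta chain of laminin-332 that the siRNA of an array of each line was made against, was not called: the control RNAs stood at 4.90, 5.05 and 5.04 in FaDu and 5.67, 5.001 and 5.21 in SAS, a difference of -0.29 ± 0.22 (SE). Of the other genes targeted in the series, CAV2 differed by -0.23 ± 0.22 and GOLM1 by -0.78 ± 0.38, neither past the test. Of the 8 tested genes in the list of these targets and the caveolin relatives, 1, CAVIN2, was called, higher in SAS, and the median was -0.32.

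Proteases and their inhibitors differed in both directions, with 6 of 27 tested members on each side and a median of -0.11. The FaDu side was a set of matrix metalloproteinases, MMP1, MMP7, MMP10, MMP12 and MMP13, plus ADAM8. MMP7 was well above background on 2 SAS arrays. MMP10, stromelysin 2, had -1.03, 1.01 and 0.58 in FaDu and -6.78, -7.09 and -6.53 in SAS, at least 28.9-fold, and MMP12 and MMP13 were at least 9.57-fold and 8.21-fold higher. MMP1, the interstitial collagenase, was measured in both lines, at 1.51, 2.56 and 2.80 in FaDu and 0.21, -0.31 and 0.25 in SAS, 4.72-fold. The SAS side included the inhibitors SERPINB2 and TIMP2 and the ADAM proteases ADAM12, ADAMTS1 and ADAMTS6. TIMP2, an inhibitor of metalloproteinases, had 2.11, 0.17 and -0.97 and 4.24, 4.41 and 4.46, 15.3-fold, with FaDu spread over 3 log2 units. SERPINB2, a serine protease inhibitor, was at background in FaDu and at 0.41, -1.59 and -2.42 in SAS, at least 12.2-fold.

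Of the adhesion genes of desmosomes and adherens junctions, 2 of 21 were higher in FaDu (DSP and PKP2, 2.67-fold and 2.10-fold) and 3 higher in SAS. These shares, 9.52% and 14.3%, were near those of all tested genes, 11.6% and 11.2%. CDH4, a cadherin of nerve tissue, was at background in FaDu and at -0.26, -1.47 and -1.70 in SAS, at least 12.7-fold, and CDH13 was 8.43-fold higher in SAS.

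TGF-beta and BMP signalling passes from secreted ligands through receptor kinases to SMAD proteins, with SMAD4 shared by both branches. Of 33 tested genes of this pathway, 12 were higher in SAS and 2 in FaDu, with a median of -0.38. Among ligands, INHBA, the activin A subunit, had -6.11, -3.43 and -4.27 in FaDu and 4.86, 3.496 and 2.78 in SAS (adjusted p = 0.000428), and TGFB2 had -3.73, -4.80 and -4.95 and 0.85, 0.78 and 0.20. Each was well above background on 1 FaDu array. The receptor TGFBR2 differed by -1.26 on the log2 scale and was called. SMAD4 itself was at background on all FaDu arrays, -7.39, -6.88 and -6.45, and at -1.93, -1.94 and -2.02 in SAS, at least 7.20-fold higher in SAS (adjusted p = 4.25e-05). The SMAD4 means of the other 5 lines lay between -2.29 and -1.84, close to the SAS values. The targets SMAD7, TGFBI, ID2, ID3 and ID4 were all on the SAS side. BAMBI, a decoy receptor that blocks the pathway, was the main gene on the FaDu side, at 1.502, -0.38 and 0.10 against -3.75, -4.77 and -6.67, a log2 difference of 5.47 (2 of the 3 SAS arrays well above background), followed by the ligand BMP6. ID1 did not pass the test and was uneven in SAS, at 2.99, 5.41 and 6.19, with 6.38, 5.51 and 5.82 in FaDu.

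Called receptor tyrosine kinases were mostly higher in SAS, and called members of a list of EGF and FGF family ligands mostly higher in FaDu. That list does not cover the ligands of all these receptors. The shares of all tested genes were 11.6% higher in FaDu and 11.2% higher in SAS. Of 27 tested receptors 7 were higher in SAS and 1, EPHA2, in FaDu, with a median of -0.63. ROR2, a receptor of WNT5A, was at background in FaDu (-5.66, -6.92 and -5.59) and at -2.16, -1.55 and -1.25 in SAS, at least 8.91-fold. MET, the receptor of hepatocyte growth factor, was high in both lines, at 3.44, 4.12 and 3.79 in FaDu and 4.95, 5.51 and 5.35 in SAS, 2.80-fold higher in SAS. EGFR was not called, at 1.57, 1.12 and 1.43 in FaDu and 1.64, 2.05 and 2.07 in SAS. Of 10 tested ligands of the EGF and FGF families 5 were higher in FaDu (NRG1, NRG4, EREG, AREG and the FGF carrier FGFBP1) and 1, FGF2, higher in SAS, with a median of 1.38. NRG1, a ligand of receptors of the EGFR family, had -0.65, -2.60 and -0.46 in FaDu and -5.85, -4.54 and -6.29 in SAS, a log2 difference of 4.32, with 1 SAS array well above background. EREG, a ligand of EGFR, had 2.15, 2.48 and 2.64 and 1.21, 0.75 and -0.33, 3.67-fold. TGFA, a further ligand of EGFR, was not called and differed by 0.05 ± 0.17 (SE).

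In the WNT pathway 3 of 33 tested genes were higher in FaDu (9.09%) and 7 in SAS (21.2%), with a median of -0.06. The shares of all tested genes were 11.6% and 11.2%. The ligands WNT3A and WNT5B and the secreted antagonists DKK1 and DKK3 were on the SAS side, DKK3 at -0.83, -1.40 and -1.88 in FaDu and 0.83, 1.51 and 1.15 in SAS (5.77-fold). The ligands WNT7A and WNT7B were on the FaDu side, WNT7A at -2.69, -0.73 and -1.61 and -3.56, -3.25 and -3.05 (3.06-fold). In the NOTCH pathway 4 of 21 were called on each side, with a median of -0.05. The glycosyltransferases that modify NOTCH were split, with MFNG 7.19-fold higher in FaDu and LFNG 3.63-fold higher in SAS, and MAML2, a NOTCH coactivator, was at background in FaDu and at -2.56, -2.52 and -2.82 in SAS.

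Interferon-stimulated genes are switched on by type I interferon through a complex of STAT and IRF proteins, which binds a DNA element of repeated GAAA letters in their promoters. Of 39 tested, 15 were higher in FaDu and 3 in SAS, with a median of 0.52. The spaced repeat GAAANNGAAA (either strand) was searched in the 250 bases before the start of each gene in RefSeq promoters of build GRCh38.p14. It was present for 9 of the 11 members higher in FaDu that have a promoter in that table, for 1 of 2 members higher in SAS, for 13 of 18 members not called and for 3.71% of all genes in the table. Stretches of 4 such promoters are printed because they carry the element in genes that differed between the lines. They run 5′ to 3′ on the strand of the gene, with the element in capitals, for ISG15 (chr1:1013354-1013429, plus strand), RSAD2 (chr2:6877602-6877671, plus strand), DDX60 (chr4:168318766-168318870, minus strand) and BST2 (chr19:17405715-17405790, minus strand):
ISG15: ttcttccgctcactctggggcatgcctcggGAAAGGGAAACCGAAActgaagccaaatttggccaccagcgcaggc
RSAD2: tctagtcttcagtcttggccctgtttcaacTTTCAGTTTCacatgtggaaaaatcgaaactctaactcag
DDX60: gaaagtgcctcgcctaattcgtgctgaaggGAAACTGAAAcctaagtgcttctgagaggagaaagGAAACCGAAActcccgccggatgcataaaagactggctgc
BST2: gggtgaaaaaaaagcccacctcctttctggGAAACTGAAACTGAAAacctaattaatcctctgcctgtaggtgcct

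ISG15, a ubiquitin-like protein, had 4.23, 5.44 and 4.91 in FaDu and 2.54, 1.19 and 1.21 in SAS, 9.27-fold (adjusted p = 0.00269). RSAD2, the antiviral enzyme viperin, had -4.56, -0.78 and -2.06 and -6.25, -6.97 and -6.65, at least 4.59-fold. DDX60, a helicase, had -1.46, 0.58 and -0.43 and -1.71, -2.31 and -2.48, 3.31-fold. All 3 genes were higher in each FaDu array than in any SAS array. The lines did not overlap in 49.7% of all tested genes. BST2, tetherin, which holds virus particles at the cell surface, had -1.49, -1.26 and -1.22 and -6.497, -3.08 and -2.94, a log2 difference of 2.85 with 2 SAS arrays well above background. In ISG15, RSAD2 and DDX60 the highest SAS value and the lowest FaDu value both came from the control miRNA arrays. IFI27 stood furthest apart, at 3.01, 1.95 and 1.64 in FaDu and -5.499, -5.15 and -5.52 in SAS, and its means in the other lines of -0.74 to 4.38 were all above the SAS values. OASL, an oligoadenylate synthetase-like protein, had 1.52, 2.94 and 2.85 and -0.54, -2.65 and -2.65, 20.8-fold. USP18, HERC5, IFI44 and IFI44L were likewise called, with differences from 2.37 to 3.14 on the log2 scale. The 3 members on the SAS side were EPSTI1 (a log2 difference of -3.500, with 2 FaDu arrays well above background), IRF1 and IFIT2.

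Among 26 tested genes of antigen presentation 5 were higher in FaDu (19.2%) and 2 in SAS (7.69%), with a median of 0.22. The shares of all tested genes were 11.6% and 11.2%. On the FaDu side were the class I genes HLA-C, HLA-E, HLA-F and HLA-G and the peptide-trimming enzyme ERAP2. The probes of class I genes can share sequence and are uncertain as single genes. ERAP2 had 2.82, 2.34 and 2.05 in FaDu and -0.67, -0.95 and -0.96 in SAS, 9.60-fold (adjusted p = 0.000173). On the SAS side were the immunoproteasome subunits PSMB8 and PSMB9, PSMB9 by 2.80-fold. B2M, the shared light chain, was not called, at 5.53, 5.30 and 4.82 in FaDu and 4.75, 5.10 and 4.95 in SAS.

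Of 26 tested cytokines and chemokines 6 were higher in FaDu and 2 in SAS, with a median of 1.15. IL1RN had 1.73, 1.96 and 2.35 in FaDu and -2.67, -2.10 and -0.48 in SAS, 13.6-fold. PTGS2, the inducible cyclooxygenase, and IL36G were at background in SAS and at least 2.88-fold and 3.07-fold higher in FaDu. IL6, called on the SAS side, had the widest spread among the called members, at -3.51, -0.97 and -0.42 in FaDu and 4.40, 1.76 and 0.30 in SAS (adjusted p = 0.0471), with the control miRNA array the lowest in FaDu and the highest in SAS. CXCL1 was too uneven to be called, at 0.98, 3.43 and 5.0 in FaDu and 4.74, -0.45 and 0.45 in SAS.

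Genes of the NRF2 programme and of xenobiotic metabolism were frequently higher in FaDu. NRF2 is the transcription factor that drives glutathione synthesis, quinone reduction and the supply of NADPH. Of 48 tested, 20 were higher in FaDu and 3 in SAS, and the median difference was 0.84. AKR1C1, an aldo-keto reductase, had 3.25, -1.89 and -0.59 in FaDu and -6.75, -6.17 and -5.84 in SAS, at least 30.3-fold (adjusted p = 0.0073). GPX2, a glutathione peroxidase of epithelia, had 0.97, -0.56 and 0.50 and -4.64, -4.38 and -3.76, a log2 difference of 4.56 with 2 SAS arrays well above background. NQO1, the quinone reductase, had 1.74, 0.01 and 0.29 and -1.61, -2.03 and -1.37, 5.09-fold. The FaDu control miRNA array was the highest for all 3, as it was for ALDH3A1. GCLC, the catalytic subunit of glutathione synthesis, had 4.37, 1.54 and 2.01 in FaDu and -0.05, 0.04 and 0.23 in SAS, 5.94-fold. TXNRD1, thioredoxin reductase, was 3.29-fold higher in FaDu. SLC7A11, the cystine transporter, was not called, with 4.55, 0.62 and 3.04 in FaDu and 0.38, 1.35 and 2.01 in SAS. The 3 genes on the SAS side were the transporters ABCC3 and ABCC4 and the vitamin D hydroxylase CYP24A1.

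Without the FaDu control miRNA array, which leaves 2 FaDu and 3 SAS arrays, all on the second slide, ALDH3A1, GPX2 and NQO1 differed by 4.10, 4.23 and 1.82 on the log2 scale, and KRT4 and SOX2 by 4.98 and 5.38. The corresponding values with all 3 FaDu arrays were 5.05, 4.56, 2.35, 6.57 and 6.29. Every one of them kept its sign.

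HOX genes encode the homeodomain factors that set position along the body axis and lie in 4 clusters. Of 30 tested, 12 were higher in FaDu and 5 in SAS, with a median of 0.25, and the counts differed from cluster to cluster. In cluster B, 7 of 8 were higher in FaDu and none in SAS. Most of these 7 probes, those of HOXB2 and HOXB13 among them, were not well above background on all SAS arrays. Such probes passed the filter only through FaDu, which favours a call on that side. HOXB4 and HOXB6 were called with all 6 arrays well above background. In cluster D, 4 of 6 were higher in SAS and 1, HOXD8, in FaDu, with 2 SAS arrays well above background for HOXD8. In cluster C none of 6 was called. In cluster A, 4 of 10 were higher in FaDu (HOXA2, HOXA4, HOXA7 and HOXA9), HOXA4 with 1 SAS array well above background. HOXA13, at the other end of the cluster, was called higher in SAS with a log2 difference of -2.84. Its probe was well above background on 1 of the 3 FaDu arrays. HOXB2 had 0.99, 0.28 and 0.41 in FaDu and -4.83, -7.29 and -7.01 in SAS, at least 37.50-fold. HOXB13 had -0.38, -1.09 and -0.72 and -6.96, -7.34 and -7.06, at least 15.3-fold. HOXD3 had -7.27, -6.83 and -6.46 in FaDu and -2.52, -2.49 and -1.85 in SAS, at least 5.74-fold the other way. HOXB9 was the member of cluster B that was not called, with 0.85, -0.40 and 1.08 in FaDu and 0.90, -0.68 and -0.42 in SAS.

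**Figure D3:**
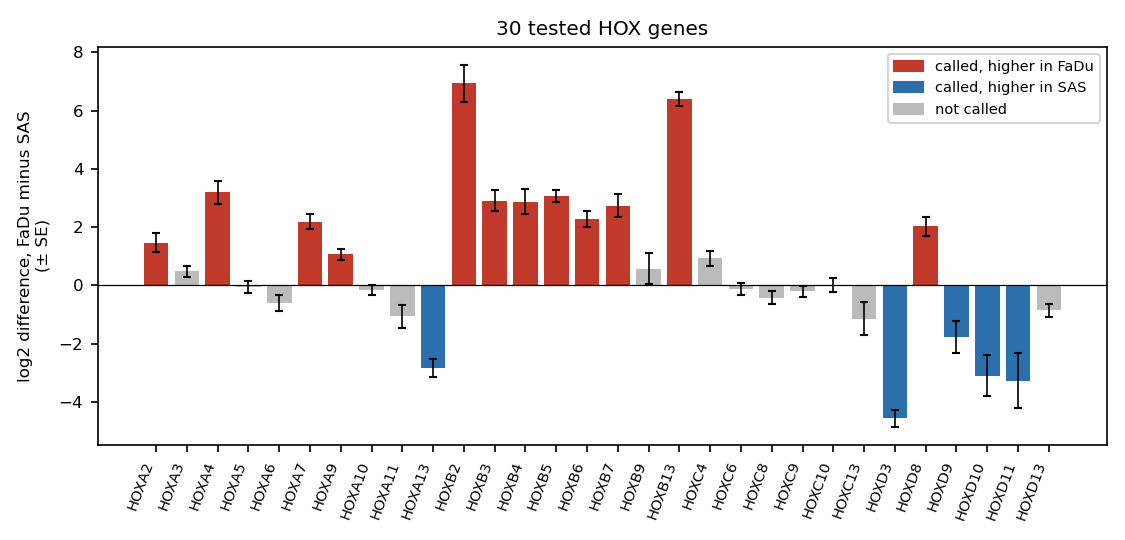
Differences of the 30 tested HOX genes, FaDu minus SAS on the log2 scale, in the order of their clusters A to D and of their numbers. Bars carry the standard error of the fit (3 arrays a line), red where called higher in FaDu, blue where called higher in SAS and grey where not called. Cluster B stands on the FaDu side, with HOXB2 at 6.94, and HOXD3 at -4.57 is the lowest bar.

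Of 33 cancer testis antigens on the array, 7 were bright enough to test, and 3 of these were higher in FaDu. MAGEA4 had 2.03, 2.64 and 2.26 in FaDu and -6.83, -3.78 and -3.90 in SAS, and MAGEA1 had 0.87, 1.83 and 1.58 and -6.60, -4.11 and -4.34. The median of the 7 was 0.38. MAGEA4 and MAGEA1 were well above background on 2 of the 3 SAS arrays, and near-identical family members can share their probes. PRAME was 2.26-fold higher in FaDu.

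Cell cycle regulators were called about as often as all genes, with 4 of 35 tested higher in FaDu and 3 in SAS and a median of -0.20. CDKN1B (p27) and CDKN2C (p18), inhibitors of cyclin-dependent kinases, were 2.97-fold and 2.96-fold higher in FaDu, and SKP2, the ubiquitin ligase subunit that targets p27 for breakdown, was 3.43-fold higher in SAS. CDK6 had 2.47, 2.07 and 2.14 in FaDu and 4.35, 4.46 and 3.76 in SAS, 3.91-fold higher in SAS. CDKN2A, the locus of p16, was measured in both lines, at 3.04, 3.96 and 3.54 in FaDu and 4.38, 5.02 and 4.87 in SAS, 2.37-fold higher in SAS, together with its neighbour MTAP (2.22-fold). TNFRSF10A, a receptor of the death ligand TRAIL, was at background in FaDu (-7.53, -6.63 and -6.81) and at -0.71, -1.25 and -1.64 in SAS, at least 12.2-fold, and all 5 other lines had it well above background.

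Metallothioneins, small cysteine-rich proteins that bind zinc and copper, were higher in SAS for 6 of 11 tested and higher in FaDu for 1 (MT3), with a median of -1.19. The 6 genes of the MT1 group differed by similar amounts, from -1.19 for MT1A to -1.46 for MT1H, and their near-identical transcripts can share probes. MT1X had 5.08, 5.94 and 5.86 in FaDu and 7.03, 7.01 and 6.95 in SAS. All 3 SAS arrays lay within 0.1 log2 units, and the FaDu control miRNA array was the lowest.

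Among 37 tested genes of glycolysis and the hypoxia response 7 were higher in SAS and 3 in FaDu, with a median of -0.45. EPAS1, the hypoxia-inducible factor HIF-2 alpha, had 4.26, 3.21 and 3.06 in FaDu and 6.28, 6.28 and 5.58 in SAS, 5.81-fold higher in SAS. CA9, a carbonic anhydrase induced by hypoxia, was called higher in SAS, a log2 difference of -3.73, but spread widely, at -7.38, -4.29 and -4.90 in FaDu, where 1 array was well above background, and -2.99, -2.04 and -0.33 in SAS. ALDOC, a brain form of aldolase, was at least 27.7-fold higher in FaDu. Of 35 genes of cholesterol and fatty acid synthesis 32 were not called, and the median was -0.21. None of the 17 reference genes was called, among them GAPDH (6.24, 7.17 and 7.35 in FaDu and 6.78, 6.75 and 6.88 in SAS).

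The called genes were not spread evenly over the chromosomes. Chromosome 22 had the largest share of genes higher in FaDu, 29.2% of 339 tested, against 8.26% higher in SAS. Chromosomes X, 15 and 16 followed on the FaDu side, with 20.1%, 19.7% and 19.2%. Chromosome 18 had the largest share higher in SAS, 20.8% of 168, and chromosome 2 had 18.1% higher in SAS against 5.13% in FaDu. Medians by chromosome ran from -0.35 on chromosome 2 to 0.46 on chromosome 15. On a list of further segments often gained or lost in squamous carcinoma, 6 of 25 tested genes were higher in FaDu (YAP1, BIRC2, BIRC3, MMP7, SOX2 and FAT1) and 3 in SAS (CDKN2A, MTAP and SMAD4), with a median of -0.09. Copy number was not measured here, and its part in these differences was not tested.

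In windows of 5 Mb with at least 10 tested genes (431 windows, coordinates of build hg19 from the array files), medians ran from -1.34 to 1.90. The median was above 0.5 in 58 windows and below -0.5 in 55. The 3 highest were chromosome 11 from 100000001 to 105000000 (1.90, 12 of 19 genes higher in FaDu), chromosome 15 from 100000001 to 105000000 (1.83, 12 of 18) and chromosome 12 from 20000001 to 25000000 (1.68, 7 of 11). The 3 lowest were chromosome 5 from 35000001 to 40000000 (-1.34, 10 of 14 genes higher in SAS), chromosome 18 from 45000001 to 50000000 (-1.30, 10 of 17) and chromosome 11 from 75000001 to 80000000 (-1.20, 17 of 26).

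**Figure D4:**
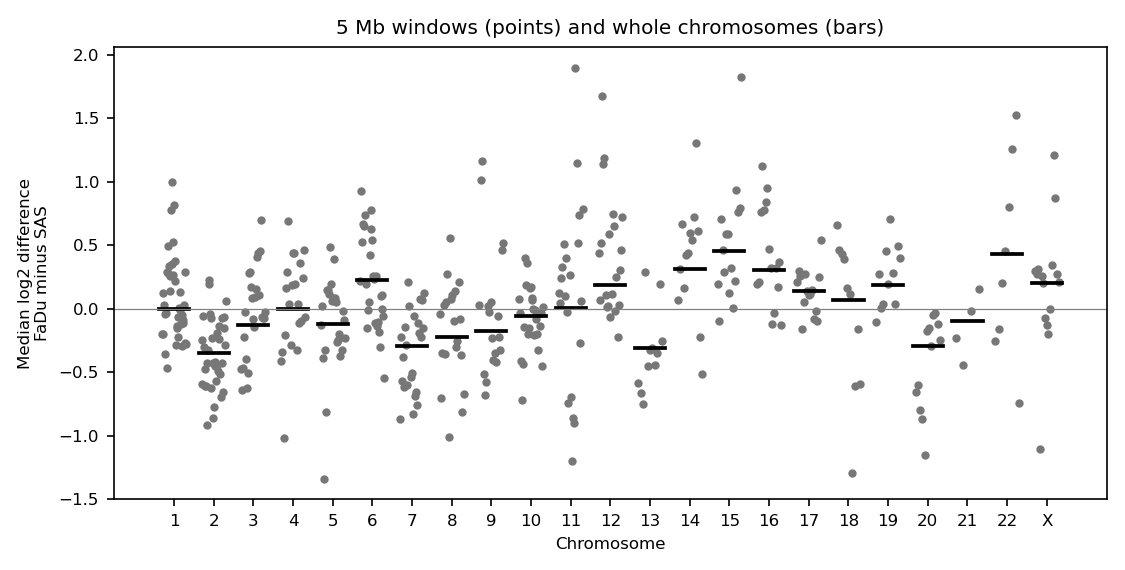
Median difference, FaDu minus SAS on the log2 scale, of the genes in each 5 Mb window (points, in order along each chromosome) and over each whole chromosome (bars). Chromosome 11 holds both 1 of the lowest windows and the highest one, at 1.90, and the bars run from -0.35 on chromosome 2 to 0.46 on chromosome 15.

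The highest window, on chromosome 11, held 19 tested genes, all with a positive difference. YAP1, the effector of the Hippo pathway, had 3.42, 3.18 and 2.79 in FaDu and 1.09, 1.18 and 1.01 in SAS, 4.10-fold (adjusted p = 0.000785), and its means in the other lines, 0.60 to 1.63, were below all 3 FaDu values. Next to it BIRC3, BIRC2 and TMEM123 were 13.2-fold, 2.33-fold and 3.73-fold higher in FaDu, then the 5 metalloproteinase genes MMP7, MMP10, MMP1, MMP12 and MMP13, then DCUN1D5, DYNC2H1 and PDGFD. DYNC2H1, a dynein of cilia, had 1.07, 0.71 and 0.84 and -2.09, -1.30 and -1.87, 6.17-fold. The 5 tested genes that follow, a cluster of inflammatory caspases and their relatives, were not called, and their differences were 0.19 to 0.42. The called genes of this window were thus a run of 12 neighbours among the tested genes. TRPC6 before them, at a difference of 0.61, did not pass the test either.

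On 11q13, the list of genes in the segment often gained in squamous carcinoma had 8 of 19 tested members higher in FaDu and none higher in SAS, with a median of 0.98. LTO1 had 4.37, 3.70 and 3.86 in FaDu and 1.02, 0.77 and 1.03 in SAS, 8.22-fold. PPFIA1, a scaffold of focal adhesions, had 3.14, 2.43 and 2.85 and -0.33, -0.51 and -0.40, 9.31-fold, and CTTN, the actin-binding protein cortactin, had 7.56, 7.46 and 6.96 and 4.84, 4.94 and 4.74, 5.60-fold. In these 3 genes the FaDu values were above the means of all 5 other lines, and no SAS mean was below all 5. ANO1 (a chloride channel), FADD (an adaptor of death receptors), SHANK2, CPT1A and TESMIN were called as well, with FADD at 5.07, 5.85 and 5.24 and 4.04, 3.86 and 3.62. SHANK2 was well above background on 1 SAS array. CCND1, cyclin D1, between the called genes CPT1A and LTO1, was not called, at 1.81, 1.98 and 1.33 in FaDu and 1.85, 1.18 and 0.77 in SAS. Next to SHANK2, DHCR7 and NADSYN1 were not called, with differences of -0.80 and -0.93. Further along the arm lay the window from 75000001, where 17 of 26 genes were higher in SAS, among them RPS3, PAK1 (3.86-fold), CLNS1A (3.38-fold), MYO7A and RSF1, and 1, KLHL35, was higher in FaDu. MYO7A was well above background on 1 FaDu array. PAK1, a kinase of actin turnover, had -0.76, 0.17 and 0.14 in FaDu and 1.67, 1.89 and 1.83 in SAS.

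The chromosome 18 window ended in 4 neighbouring genes at background on all FaDu arrays, ME2, ELAC1, SMAD4 and MEX3C. ME2, the mitochondrial malic enzyme, had -6.33, -5.40 and -5.95 in FaDu and 0.40, 0.36 and 0.15 in SAS, at least 34.7-fold. ELAC1, a tRNA-processing nuclease, had -6.73, -6.99 and -6.63 and -1.22, -1.10 and -1.01, at least 13.01-fold. MEX3C had -7.30, -7.05 and -6.60 and 1.37, 1.70 and 1.73, at least 84.8-fold. All 4 were well above background on every other array of the design. Their probes lie on chromosome 18 at 48473496 to 48473555 (ME2), 48513372 to 48513431 (ELAC1), 48605060 to 48605119 (SMAD4) and 48701269 to 48701328 (MEX3C). Just before them MBD1, CXXC1 and SKA1 were well above background on all 3 FaDu arrays. MBD1 and CXXC1 were called at -1.39 and -1.02, and SKA1 was not, at -0.67. SMAD7, earlier in the window, was 7.27-fold higher in SAS, and DYM and RPL17 2.46-fold and 2.47-fold.

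**Figure D5:**
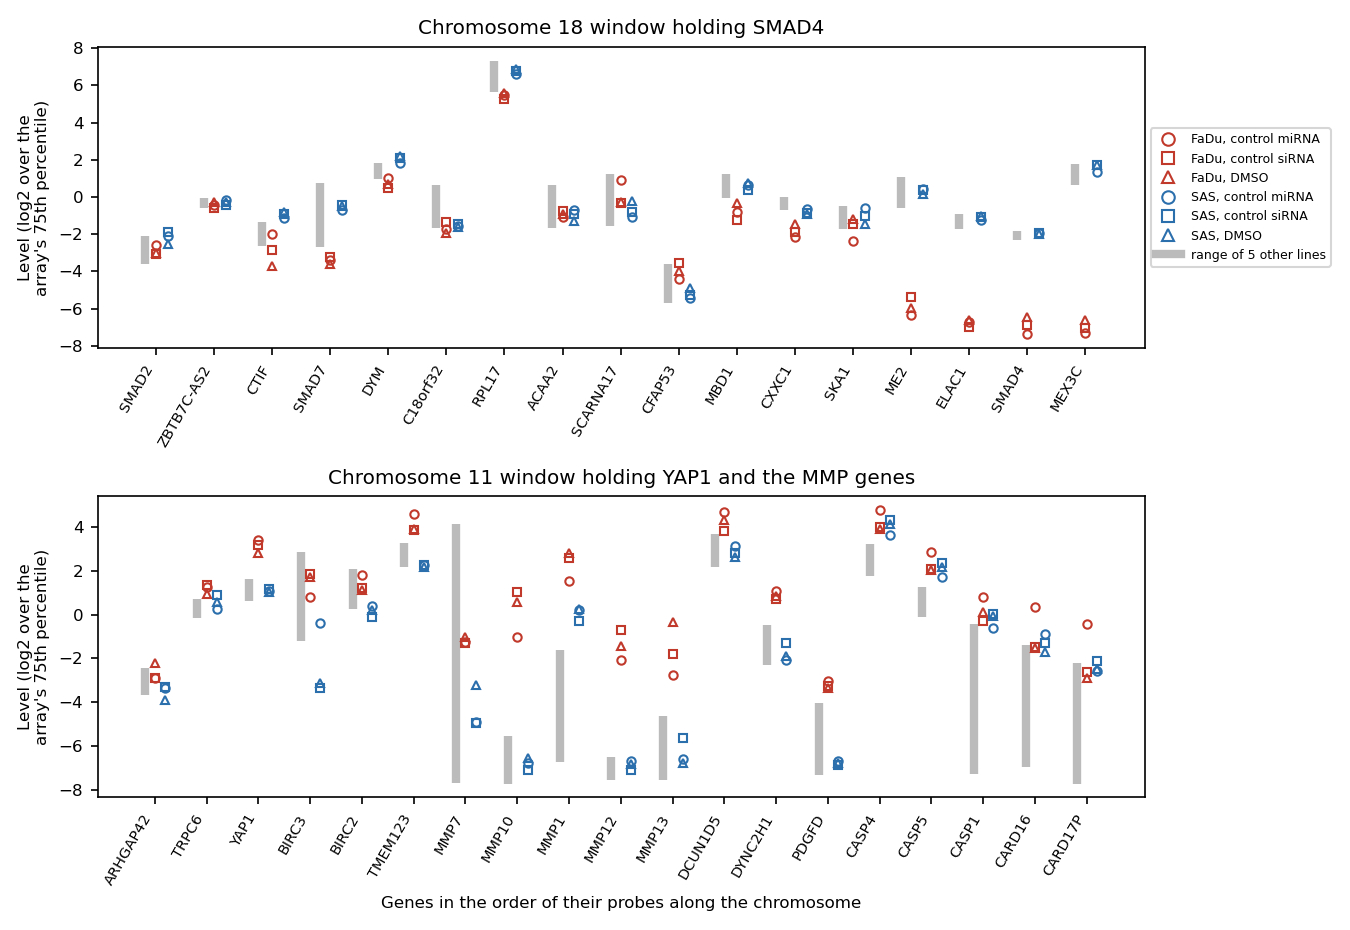
Levels, on a log2 scale relative to each array's 75th percentile, of the tested genes of the chromosome 18 window (upper panel) and of the highest chromosome 11 window (lower panel) in the order of their probes. Red symbols are the FaDu arrays, blue the SAS arrays, shapes give the kind of control, and grey bars span the means of the 5 other lines. In the upper panel FaDu falls to background at the last 4 genes, where ME2 differs by -6.20 and MEX3C by -8.58, and in the lower panel FaDu lies above the grey bars for YAP1 and TMEM123, among others.

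On chromosome 5, 10 genes between IL7R and DAB2 were higher in SAS, both included, among them the cytokine receptors LIFR and OSMR (2.90-fold and 2.33-fold), the glutamate transporter SLC1A3 (7.13-fold) and SKP2. SLC1A3 had -0.27, -0.41 and 0.05 in FaDu and 2.49, 2.36 and 3.02 in SAS. At the end of chromosome 15, 12 of 18 genes were higher in FaDu, with ALDH1A3, a retinaldehyde dehydrogenase, at 5.62, 6.30 and 5.80 and 2.35, 2.34 and 2.92 (10.4-fold), CHSY1, a chondroitin synthase, at 4.26, 4.24 and 4.02 and 1.99, 1.95 and 1.53 (5.08-fold), and MEF2A 3.30-fold higher. On chromosome 12 the 7 called genes of the window were SLCO1B3, RECQL, PYROXD1, GOLT1B, C2CD5, ETNK1 and BCAT1. BCAT1, a transaminase of branched-chain amino acids, was 3.67-fold higher in FaDu and ETNK1, ethanolamine kinase, 3.35-fold.

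Genes at background in 1 of the 2 lines and well above background on all 13 other arrays of the design were set apart. There were 38 such genes at background in FaDu and 65 in SAS. Those at background in FaDu included, besides NNMT, AJUBA, ALDH7A1, TNFRSF10A and the 4 genes of chromosome 18, the deubiquitinase MINDY3 (at least 62.4-fold), the coagulation inhibitor TFPI (at least 46.8-fold) and the disulfide isomerase TMX3 (at least 36.2-fold). MINDY3 had -7.66, -7.27 and -6.90 in FaDu and 1.51, 1.03 and 0.92 in SAS, and TFPI had -7.26, -6.77 and -6.36 and 0.16, 0.99 and 1.07. Those at background in SAS included, besides MGST1, TUSC3, EPDR1, LDOC1, CYB5A, AKR1C1 and IFI27, the atypical cadherin FAT1, the protease inhibitor LXN, the microtubule proteins HOOK1 and MAP9, the junctional protein JPH1 and the zinc finger genes ZNF350, ZNF808 and ZNF761 of chromosome 19. FAT1, a tumour suppressor often mutated in squamous carcinoma, had -0.39, -0.43 and -0.42 in FaDu and -6.66, -7.08 and -5.56 in SAS, at least 19.1-fold. LXN had 1.11, 1.24 and 1.05 and -6.71, -7.07 and -5.004, at least 55.7-fold, and MAP9 had -0.01, -0.12 and -0.83 and -7.01, -7.36 and -7.09, at least 20.3-fold. Whether such a gene is silent, deleted or altered only at the probe cannot be told apart from these levels. TFPI, MINDY3, TMX3, LXN, HOOK1, MAP9, JPH1 and the zinc finger genes were chosen after their values were seen.

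The array also carries probes for long intergenic RNA (lincRNA) intervals, which have no gene name. Of 2402 intervals tested, 7.12% were higher in FaDu and 8.7% higher in SAS, 171 and 209 intervals. These 380 fell to 123 with normexp correction and to 194 when the probe had to be well above background on all 6 arrays. Of the 3 intervals with the largest log2 difference in each direction, the probes of 5 are printed, since the probe is the only identity these transcripts have, from the array files and 5′ to 3′, with no part singled out by capitals. The sixth, on chromosome 18, is described by position. The first 3 were higher in FaDu and the last 2 in SAS:
Probe at chr19:53150976-53151035 (minus strand) for interval chr19:53149513-53154883: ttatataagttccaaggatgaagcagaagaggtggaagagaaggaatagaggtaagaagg
Probe at chr22:48086469-48086528 (plus strand) for interval chr22:48081989-48086596: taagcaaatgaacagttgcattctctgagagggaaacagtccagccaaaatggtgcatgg
Probe at chr15:81952965-81953024 (minus strand) for interval chr15:81952822-82163466: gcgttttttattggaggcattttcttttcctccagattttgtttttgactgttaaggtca
Probe at chr7:22610678-22610737 (plus strand) for interval chr7:22610674-22610775: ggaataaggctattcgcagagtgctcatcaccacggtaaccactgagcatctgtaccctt
Probe at chr7:22613287-22613346 (plus strand) for interval chr7:22602962-22613615: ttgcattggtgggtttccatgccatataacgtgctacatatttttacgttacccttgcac

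The chromosome 19 interval had -1.17, -0.03 and -0.95 in FaDu and -6.62, -6.99 and -6.55 in SAS, at least 15.45-fold. The chromosome 22 interval had -0.89, -0.75 and -0.87 and -6.83, -6.06 and -6.93, at least 14.2-fold, and that of chromosome 15 had -0.75, -1.40 and -1.31 and -6.57, -7.02 and -6.71, at least 11.4-fold. None of the 3 was well above background on any SAS array. Both chromosome 7 intervals overlap. The shorter had -7.20, -6.27 and -6.49 in FaDu and 1.66, 0.64 and -0.25 in SAS, at least 45-fold higher in SAS. The longer had -7.42, -6.74 and -6.42 and 1.30, -0.17 and -1.72, at least 24.46-fold. The chromosome 18 interval, chr18:48607527-48612752, lies between the probes of SMAD4 and MEX3C, and was well above background on 1 FaDu array, with -3.84, -7.23 and -6.84 in FaDu and 0.55, 1.04 and 1.09 in SAS. Its probe lies at 48611330 to 48611389 on the plus strand. Whether it reads a transcript apart from SMAD4 was not tested.

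Among the genes called higher in FaDu, the FaDu mean was above the means of all 5 other lines for 41.9%, and the SAS mean was below all 5 for 36.7%. Among those called higher in SAS, the SAS mean was above all 5 for 39.49% and the FaDu mean below all 5 for 34.9%. Over all tested genes FaDu was above the 5 other lines in 20.53% and SAS in 19.3%, and they were below them in 13.6% and 13.95%. Called genes therefore included both levels above and levels below those of all 5 other lines.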

How the data were processed

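RNA was extracted with Trizol, labelled with Agilent's low-input 2-colour method and hybridised to SurePrint G3 arrays (design of hg19 probes). The intensity values deposited by the authors are Feature Extraction output: processed Cy3 (control) and Cy5 (treated) signals, background-subtracted and dye-normalised, with no dye swap, and other columns of the deposited files hold the flags used here. From the Cy3 intensity, log2 was taken and the log2 of each array's 75th percentile subtracted. Spots of a probe were averaged, and probes well above background on all 3 arrays of FaDu or of SAS were kept. FaDu and SAS were compared with limma 3.58.1 in R 4.3.3 (lmFit, eBayes, Benjamini-Hochberg over all tested probes), tested on simulated data first. There 0 of 200 probes changed by 1 on the log2 scale were called. Of 200 changed by 2, 130 were called, with 4 false calls. Far fewer probes were changed there than were called in the data. A gene not called can thus still differ by 2 or more on the log2 scale. Only probes whose symbol matched a RefSeq gene entered the gene counts, and 30 genes (Y copies and others) were left out. Bounds used, for each array of the dim line, the higher of the probe's own level and the lowest level among probes well above background. Named genes were the 10 largest in each direction, the 10 largest among those above background on all 6 arrays, up to 5 called and 3 uncalled members of each of 34 lists, 4 target or reference genes, 3 lincRNA intervals in each direction and the called genes of the 6 extreme windows. Further genes were named after their values were seen, mostly remaining called members of lists and neighbours on chromosome 11 or 18. The members and lists were chosen with earlier results of these data known. Some genes and 1 list are not reported here. The number of arrays limits the precision.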

Additional observations from a re-analysis of the deposited data

How the results depend on the processing

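With 3 arrays a line, normexp background correction called 2209 probes, 751 genes higher in FaDu, 854 higher in SAS, 1263 of the genes above background on all 6 arrays and 123 lincRNA intervals. Keeping only probes above background on all 6 arrays gave 3036 probes, 1022 genes higher in FaDu and 194 intervals, from fewer probes tested. The Cy5 channel of the si-LAMB3 and wogonin arrays, 2 arrays a line, gave 2724 probes, 904 and 752 genes, and 823 of the genes above background throughout. For the latter, the adjusted p alone gave 3134. A difference of at least 2 on the log2 scale gave 1949 probes, 604 and 626 genes, 473 of the genes above background throughout and 181 intervals. Leaving out 1 array at a time gave 3598 to 4775 probes, 1158 to 1531 genes higher in FaDu, 1073 to 1478 higher in SAS, 1428 to 2043 of the genes above background throughout and 289 to 373 intervals. With all 16 control channels and slide as a block, 1401 of the 1536 genes higher in FaDu and 1315 of the 1489 higher in SAS were called again, and without the FaDu control miRNA array 1325 and 1281. Of 247 genes named, 44 kept their sign but lost their call with normexp correction, and 44 did so without the SAS control siRNA array. In Cy5 48 of 246 did so, and 81 of 246 in Cy5 of the si-LAMB3 and wogonin arrays. Reversals among the genes named were S100A9 (0.32) and SLC7A11 (-0.53) in the Cy5 channel of the si-LAMB3 and wogonin arrays, CAV2 (0.10 in Cy5 of all 6 arrays and 0.19 as the mean of its probes) and GAPDH (-0.10 to 0.46 when 1 array was left out, below 0 without the control siRNA or the DMSO array of FaDu), of which only S100A9 was called. The cause was not tested for any of these. The replicate numbers only name the arrays, but each line had 1 array of each kind of control, and with control kind as a block 4056 probes, 1314 genes higher in FaDu and 1231 higher in SAS were called, 1285 and 1212 of them shared with the fit without it. Dim probes give bounds, not levels, and small differences could not be resolved at this number of arrays.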
